A study of Mus musculus with 24 samples.

Results

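Neuron-enriched miRNAs were examined in exosome-enriched fractions (EEFs) of mouse hippocampus. They are the 9 mature forms miR-124-3p, miR-124-5p, miR-9-5p, miR-9-3p, miR-128-3p, miR-218-5p, miR-153-3p, miR-7a-5p and miR-7b-5p (listed as mmu-mir-124-3p, mmu-mir-124-5p, mmu-mir-9-5p, mmu-mir-9-3p, mmu-mir-128-3p, mmu-mir-218-5p, mmu-mir-153-3p, mmu-mir-7a-5p and mmu-mir-7b-5p), chosen by name, out of 1073 mature miRNA names with at least 1 read in the 24 libraries. EEFs are vesicle pellets released from dissociated tissue, here from hippocampi of male C57BL/6OlaHsd mice (C57BL/6 in the labels) aged 6 to 9 weeks. Status epilepticus was set off by 0.3 µg of kainic acid (KA) in 0.2 µl injected into the basolateral amygdala, and control mice received phosphate-buffered saline (PBS) in its place. Midazolam was given afterwards to curtail the seizures, and hippocampi were taken after perfusion with PBS at 24 h or 2 weeks. EEFs were pelleted by ultracentrifugation (UC) or precipitated with an exosome kit, then treated with RNase A so that RNA outside vesicles would be degraded. The 8 groups of method, treatment and time held 3 libraries each, and each library came from pooled hippocampi, so that the spread between libraries is a spread between pools. No cell type was sorted, and the EEFs of neurons, glia and vessels were sequenced together.

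MiRNAs are cut from a hairpin precursor into a 5p and a 3p strand, 1 of which is usually kept in the silencing complex and pairs through its seed, bases 2 to 8, with target messages. MiR-124 and miR-128 are abundant in mature neurons, miR-9 acts in neural progenitors and in neurons and astrocytes, and miR-218 and miR-153 are largely neuronal. MiR-7 is made from several hairpins, is high in neuroendocrine tissue, and is bound by the circular RNA Cdr1as in brain.

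The mature sequences are shown because the differences described further on concern the strand kept, the 3′ end and, for the miR-7 pair, a single base. They were taken from RefSeq (GRCm38.p6), which held 7 of the 9 members, and the seed is in capitals.
miR-9-5p: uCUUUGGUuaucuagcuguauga
miR-9-3p: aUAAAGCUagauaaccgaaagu
miR-128-3p: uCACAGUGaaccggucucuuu
miR-218-5p: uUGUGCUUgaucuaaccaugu
miR-153-3p: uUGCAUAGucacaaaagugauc
miR-7a-5p: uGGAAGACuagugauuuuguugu
miR-7b-5p: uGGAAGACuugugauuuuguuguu

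MiR-7a-5p and miR-7b-5p had the same seed and differed by A10U, with positions counted from 1 at the 5′ end and miR-7a-5p first, apart from the longer 3′ end of miR-7b-5p. Reads of this pair that do not reach that base or carry an error at it cannot be assigned with certainty. Of the 5 other members with a sequence here, none shared its seed with a miRNA that had reads. MiR-9-5p and miR-9-3p are encoded by 3 hairpins, Mir9-1 at chr3:88215598-88215686 in an intron of the lincRNA Gm3764, Mir9-2 at chr13:83738814-83738885 in an exon of C130071C03Rik and Mir9-3 at chr7:79505264-79505353 in an intron of Mir9-3hg. MiR-128-3p comes from Mir128-1 at chr1:128202361-128202430 in an intron of R3hdm1 and Mir128-2 at chr9:112118636-112118711 in an intron of Arpp21. MiR-218-5p comes from introns of the axon guidance genes Slit2 (Mir218-1, chr5:48223942-48224051) and Slit3 (Mir218-2, chr11:35616816-35616925). MiR-153-3p lies in an intron of Ptprn2 (chr12:117250817-117250885). MiR-7a-5p comes from Mir7-1 in an intron of Hnrnpk (chr13:58392779-58392886) and from Mir7-2 at chr7:78888277-78888373, and miR-7b-5p from Mir7b at chr17:56242988-56243098, both outside any annotated host gene. Hairpins of one family give the same major strand, so the counts cannot be divided among them.

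Libraries held between 85436 and 169639 miRNA reads in UC and between 154884 and 676726 in kit, and levels are given as CPM, counts relative to library size after scaling by trimmed mean of M-values (TMM). A single read was worth 5.71 to 11.3 CPM in UC and 1.59 to 5.87 in kit, and p-values rest on the spread between 3 pools per group. The members took 2.85 to 4.11% of reads in UC and 4.22 to 7.87% in kit. Of the marker lists for other cell types, the 4 oligodendrocyte miRNAs summed to 7465 to 11248 CPM in UC and 2201 to 2855 in kit, and the 2 endothelial miRNAs to 241 to 541 in UC and 2239 to 3335 in kit, neither range overlapping. The other lists overlapped between methods, at 1656 to 6628 and 654 to 8226 CPM for the 5 microglia and leukocyte miRNAs, 6555 to 17518 and 10743 to 36736 for the 2 of smooth muscle and pericytes, 292 to 1536 and 423 to 1639 for the 4 of red blood cells, and 350.0 to 3533 and 695 to 3059 for the 3 of choroid plexus. In UC KA at 2 weeks miR-451a, miR-144-3p and miR-486a-5p had 0 reads. The red blood cell sum there, 365 to 1536 CPM, was miR-486b-5p alone. MiR-145a-5p had 0 reads there too, so the sum of smooth muscle and pericytes was miR-143-3p alone. MiR-451a also had 0 reads in UC controls at 2 weeks. Liver and muscle miRNAs, which these EEFs should lack, summed to at most 10.4 and 21.0 CPM, with miR-1a-3p and miR-206-3p at 0 reads in all 24 libraries.

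The 9 members spanned 3 orders of abundance, with the same 3 major strands on top in both methods. MiR-9-5p was the most abundant, at 20551 ± 4601 CPM (SD, n = 12) in UC, where it ranked 6 among 859 names with a read, and 30893 ± 3512 in kit, where it ranked 8 of 961. MiR-128-3p followed at 7542 ± 1306 in UC (rank 19) and 15782 ± 5342 in kit (rank 15). MiR-124-3p, which is among the most abundant miRNAs of brain tissue, stood at 5713 ± 1116 in UC (rank 24) and 5614 ± 1402 in kit (rank 30). In UC the ranges over 12 libraries of miR-9-5p and miR-128-3p did not overlap, while miR-128-3p exceeded miR-124-3p in 11 of 12 libraries with overlapping ranges. In kit the order was the same, but it was miR-128-3p and miR-124-3p whose ranges were apart, the former being higher in 12 of 12 libraries. Levels of different miRNAs in a library also carry the ligation and amplification bias of each sequence, so the order is one of reads.

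The next 3 strands formed a middle tier. MiR-218-5p averaged 476 ± 63.1 CPM in UC and 1226 ± 320.3 in kit, miR-153-3p 352 ± 89.6 and 998 ± 289, and miR-9-3p 340.1 ± 66.9 and 896 ± 184. MiR-153-3p and miR-9-3p changed places from library to library, the former being higher in 4 of 12 UC and 6 of 12 kit libraries, and their levels are not distinguished by these data. MiR-124-5p, the passenger strand of miR-124, had 167 ± 57.0 in UC and 51.0 ± 12.8 in kit. The miR-7 pair lay at the floor of detection, with 25 reads of miR-7a-5p and 39 of miR-7b-5p over the 12 UC libraries and 36 and 42 over the 12 kit libraries. No library held more than 6 reads of miR-7a-5p or 11 of miR-7b-5p, so their levels are set by counts of a few reads. The names miR-124b and miR-9b, which miRBase lists beside these families, had 0 reads.

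**Figure D1:**
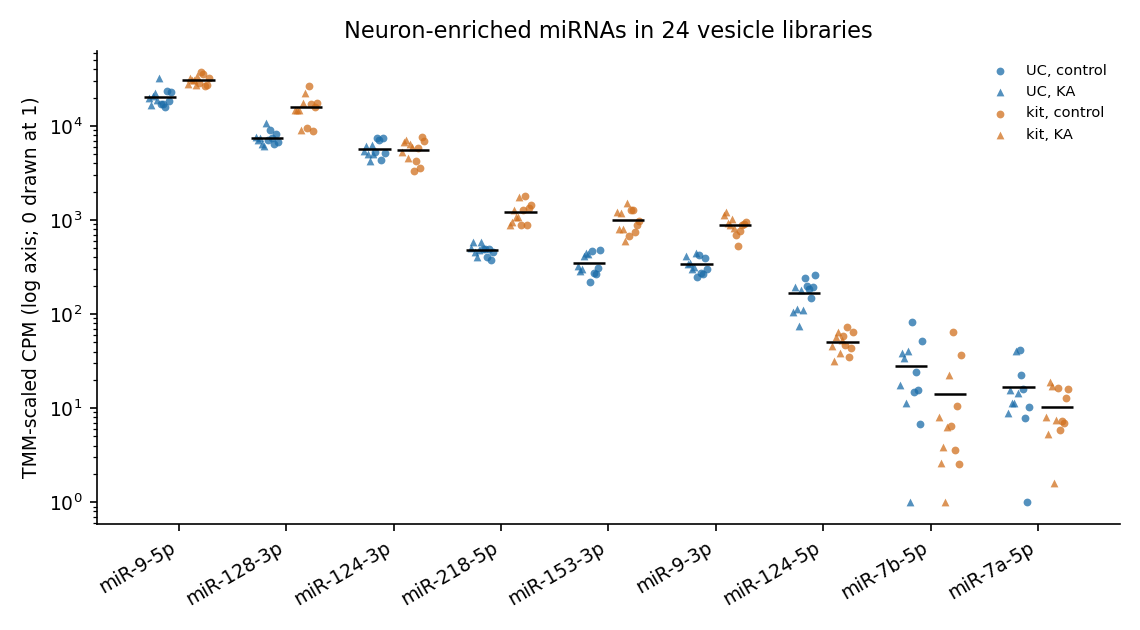
Level of each member in each of the 24 libraries in TMM-scaled CPM on a log axis, circles for controls, triangles for KA, with the mean of 12 libraries per method as a bar. MiR-9-5p, miR-128-3p and miR-124-3p lie above every library of the other members, and the kit points (orange) of miR-218-5p, miR-153-3p and miR-9-3p lie above all UC points (blue), those of miR-124-5p below them.

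The series next allowed the 2 preparations to be compared, by the mean of the 4 matched kit minus UC differences. MiR-9-5p, miR-9-3p, miR-128-3p, miR-218-5p and miR-153-3p were higher in kit, miR-124-5p and miR-7b-5p were lower, and miR-124-3p and miR-7a-5p did not pass the test. That made 7 of 9 members called by edgeR's quasi-likelihood test at an adjusted p under 0.05, of which 5 were higher, while 65.5% of the 397 miRNAs tested were called, 33.5% higher and 32.0% lower. The members' median difference was 0.60 on the log2 scale and that of all 397 was 0.03. The share called was thus near that of the table. Kit and UC pools also differ in the number of hippocampi and in the steps after the low-speed spins. The medium and volume for dissociating the tissue differed too, with Hibernate A for UC and PBS for kit. A different share of neuronal vesicles and a different amount of a miRNA per vesicle cannot be told apart in such pooled material.

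MiR-124-3p did not pass the test between methods. In UC, controls at 24 h read 5239.7, 7472 and 7051 CPM, KA at 24 h 5374, 6070.0 and 4998, controls at 2 weeks 4369, 7364 and 5146 and KA at 2 weeks 4194, 6209 and 5062. In kit, controls at 24 h read 3356, 4239.6 and 5797 CPM, KA at 24 h 5301, 6720.2 and 7058, controls at 2 weeks 3610.4, 7590.3 and 6850.0 and KA at 2 weeks 4573, 6364 and 5909. The libraries of the 2 methods overlapped across nearly their whole range, and the difference was -0.03 (SE 0.14), with a 95% interval of -0.31 to 0.25 (adjusted p = 0.854). Within conditions it ranged from -0.56 in controls at 24 h to 0.21 in KA at 24 h, and was not called in any of the 4. Its passenger miR-124-5p was lower in every kit library. UC libraries read 10 to 29 reads each, or 74.2, 183 and 259 CPM as lowest, median and highest, and kit libraries 8 to 24 reads, or 31.7, 49.9 and 72.6. The 2 sets of 12 did not overlap, and the difference was -1.68 (SE 0.21), a 3.21-fold lower level (adjusted p = 1.7e-08).

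MiR-128-3p, known to restrain neuronal excitability through a broad set of targets, was 2.09-fold higher in kit. In UC, controls at 24 h read 7018, 9050.3 and 7477 CPM, KA at 24 h 7712, 7066 and 7543, controls at 2 weeks 6405, 8213 and 6702 and KA at 2 weeks 6374, 6189 and 10754. In kit, controls at 24 h read 9601, 26865 and 17119 CPM, KA at 24 h 14934, 14662 and 14635, controls at 2 weeks 8795, 15918 and 17666 and KA at 2 weeks 8996, 17644 and 22554. Replicate 1 of both kit control groups and of kit KA at 2 weeks lay within the UC range, and the other 9 were above every UC library. The difference was 1.06 (SE 0.16) (adjusted p = 8.6e-07).

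Both strands of miR-9 were higher in kit, to different extents. For miR-9-5p in UC, controls at 24 h read 17309.9, 16932 and 15735 CPM, KA at 24 h 20037, 16743 and 20706, controls at 2 weeks 23631, 18357 and 23023 and KA at 2 weeks 22510.1, 19049 and 32584. In kit, controls at 24 h read 28414, 37264 and 35298 CPM, KA at 24 h 28016, 32671 and 30651, controls at 2 weeks 26472, 27225 and 32519 and KA at 2 weeks 30506, 27507 and 34177. One UC library, KA at 2 weeks replicate 3, reached into the kit range, and the other 11 lay below every kit library. The difference was 0.60 (SE 0.11), or 1.52-fold (adjusted p = 2.4e-05), and it was called in controls and KA at 24 h but not at 2 weeks, where it was 0.41 and 0.31. MiR-9-3p read 249.5, 327 and 446 CPM as lowest, median and highest of the UC libraries and 534, 900.4 and 1224 of the kit libraries. These did not overlap, and the difference was 1.38 (SE 0.15), or 2.59-fold (adjusted p = 9.7e-10).

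MiR-218-5p, a regulator of motor and hippocampal neurons, read 377, 485 and 579 CPM as lowest, median and highest in UC and 889, 1184 and 1821 in kit. Its 2 sets of 12 libraries did not overlap, with a difference of 1.36 (SE 0.16) or 2.57-fold (adjusted p = 3.4e-09). MiR-153-3p, which targets synaptic vesicle proteins, read 218.3, 319 and 477 in UC and 597.8, 936 and 1503 in kit, again without overlap, with a difference of 1.51 (SE 0.18) or 2.84-fold (adjusted p = 6.6e-09). Including miR-124-5p and miR-9-3p, 4 of 9 members had methods that did not overlap, against 12.3% of all miRNAs tested. These 4 and miR-128-3p were called in each of the 4 conditions alone, where 38.8% of miRNAs were called in controls and 37.5% in KA at 24 h, and 34.8% in controls and 27.5% in KA at 2 weeks.

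The miR-7 pair was too sparse to place. MiR-7a-5p was -0.50 (SE 0.47) by the fit and not called (adjusted p = 0.356), with a 95% interval of -1.43 to 0.43. MiR-7b-5p was called lower at -1.19 (SE 0.52) (adjusted p = 0.0457) from 39 reads in UC and 42 in kit, in overlapping ranges of 0 to 83.2 and 0 to 64.6 CPM. Leaving out 1 library took that call away in 14 of 24 cases, with differences between -1.24 and -0.89 in those cases, the smallest without UC KA at 2 weeks replicate 2. It was also lost with library size only, at -1.14, with reads of long 3′ ends left out, at -1.11, and within each of the 4 conditions.

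The size of these differences depended on how libraries were put on one scale. Leaving the 3 most abundant miRNAs out of the library size moved the median of all miRNAs by -0.39 and scaling to miR-92b-3p together with miR-25-3p by -0.45. The calls then split as 92 higher and 166 lower, or 83 and 157, against 51.2% higher with TMM, and those of the members as 4 higher and 3 lower under both. Under these, miR-9-5p was no longer called, at 0.21 and 0.16, and miR-124-3p was called lower, at -0.44 (adjusted p = 0.00632) and -0.48 (adjusted p = 0.0369). MiR-9-3p, miR-128-3p, miR-218-5p and miR-153-3p stayed called higher and miR-124-5p and miR-7b-5p lower under both. A ratio between members within a library needs no such scale. Against miR-124-3p in the same library, the difference between methods was 1.52 on the log2 scale for miR-153-3p (p = 2.5e-05, exact permutation test within conditions, two-sided), 1.42 for miR-9-3p and 1.37 for miR-218-5p (both p = 1.25e-05, the smallest possible in this exact test), 1.05 for miR-128-3p (exact p = 2.5e-05), and 0.65 for miR-9-5p (exact p = 0.00489). With miR-7a-5p at -0.67 (exact p = 0.128), miR-7b-5p at -1.34 (exact p = 0.0384) and miR-124-5p at -1.61 (exact p = 1.25e-05), 8 ratios were compared.

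**Figure D2:**
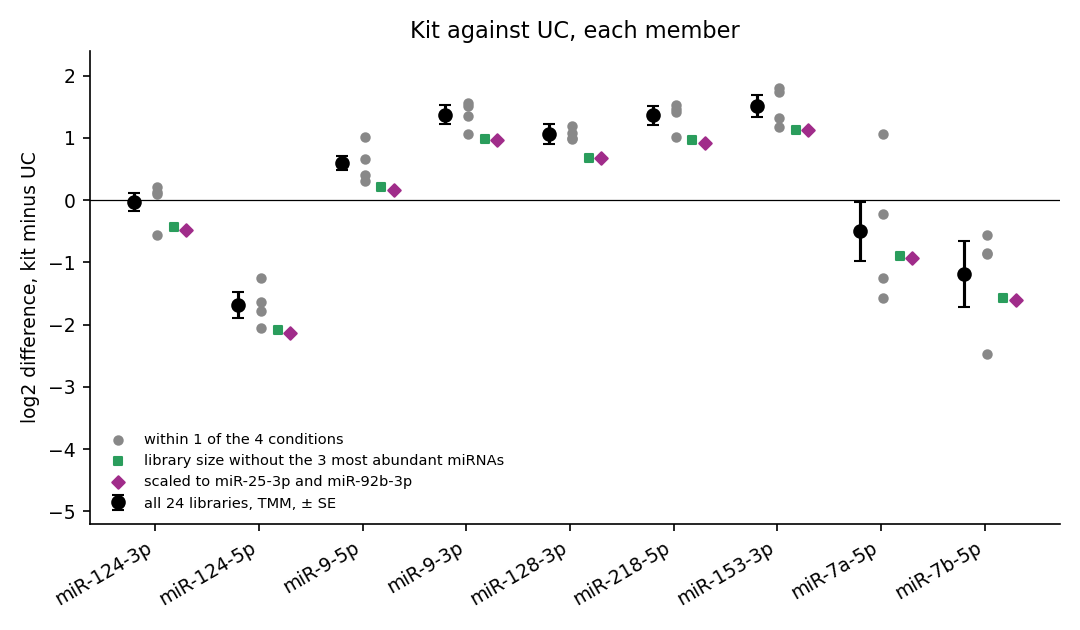
Log2 difference of each member, kit minus UC, with the fit over 24 libraries (black, ± SE), each of the 4 conditions alone (grey) and 2 other scalings (green squares, purple diamonds). MiR-9-3p, miR-128-3p, miR-218-5p and miR-153-3p stay above 0 and miR-124-5p below 0 in each of them, while miR-124-3p lies near 0 with TMM and below it with the other scalings, and the grey points of miR-7a-5p fall on both sides.

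Other neuron-enriched miRNAs were called in both directions too. Of 20 listed, 18 were tested between methods, and 8 were higher and 4 lower in kit, with a median of 0.25. The share called was close to the 65.5% of all miRNAs tested. Those with the lowest p were miR-129-5p at -1.58, miR-598-3p at 2.04, the activity-induced miR-212-3p at 2.37 and miR-212-5p at 1.14, and the dendritic miR-134-5p at -0.99. Across the 24 libraries after centring each method on its own mean, the miRNAs most like miR-124-3p were miR-125b-2-3p, miR-125a-3p and miR-412-5p (Pearson's r of 0.79, 0.78 and 0.77 among 161 candidates). Those most like miR-9-5p were miR-191-5p, miR-30a-5p and miR-598-3p (0.77, 0.75 and 0.73 among 160), and those most like miR-128-3p were miR-146b-5p, miR-486b-5p and miR-24-3p (0.68, 0.66 and 0.58). For miR-146b-5p the value was 0.20 over the UC libraries and 0.81 over the kit libraries, and for miR-191-5p 0.89 and 0.40. Among members the same measure was 0.43 between miR-124-3p and miR-128-3p and -0.28 between miR-124-3p and miR-9-5p. These values share libraries and scaling and are given as descriptions.

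The arm ratio, reads of the major over the other strand of a hairpin in the same library, was then compared, since it is free of library scaling. With 0.5 reads added to both strands, the 3p to 5p ratio of miR-124 was 19.5, 36.8 and 54.5 as lowest, median and highest of the UC libraries and 55.7, 105 and 203 of the kit libraries. Every kit library lay above every UC library, and pooled reads were 8723 to 248 in UC and 21994 to 186 in kit. The difference was 1.61 on the log2 scale (SE 0.20, adjusted p = 7.2e-07, limma) and the exact permutation p was 1.25e-05, the smallest possible. That permutation test is the one given above for miR-124-5p against miR-124-3p with its sign turned, not a further one. For miR-128 the ratio of 3p to the 5p strands of both hairpins was 25.1, 33.8 and 47.7 in UC and 47.9, 126.5 and 278 in kit, and the methods again did not overlap. The difference was 1.69 (SE 0.29, adjusted p = 3.6e-05), and kit libraries varied more than UC libraries, with an SD of 0.86 against 0.34 on the log2 scale. MiR-9 went the other way, with a 5p to 3p ratio of 39.6, 59.0 and 87.5 in UC and 24.9, 33.4 and 69.4 in kit. Its ranges overlapped, and the difference was -0.77 (SE 0.17, adjusted p = 3.8e-04). It was not even over the conditions. In controls at 24 h the geometric mean ratio was 53.4 in UC and 50.6 in kit. In KA at 24 h it was 51.3 and 27.9, in controls at 2 weeks 67.1 and 31.1, and in KA at 2 weeks 68.4 and 33.9. All 3 member hairpins with enough reads were called, as were 78.0% of the 59 hairpins tested. How many of the 59 had methods without overlap was not counted, so the separation of miR-124 and miR-128 is not shown to be particular to them.

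**Figure D3:**
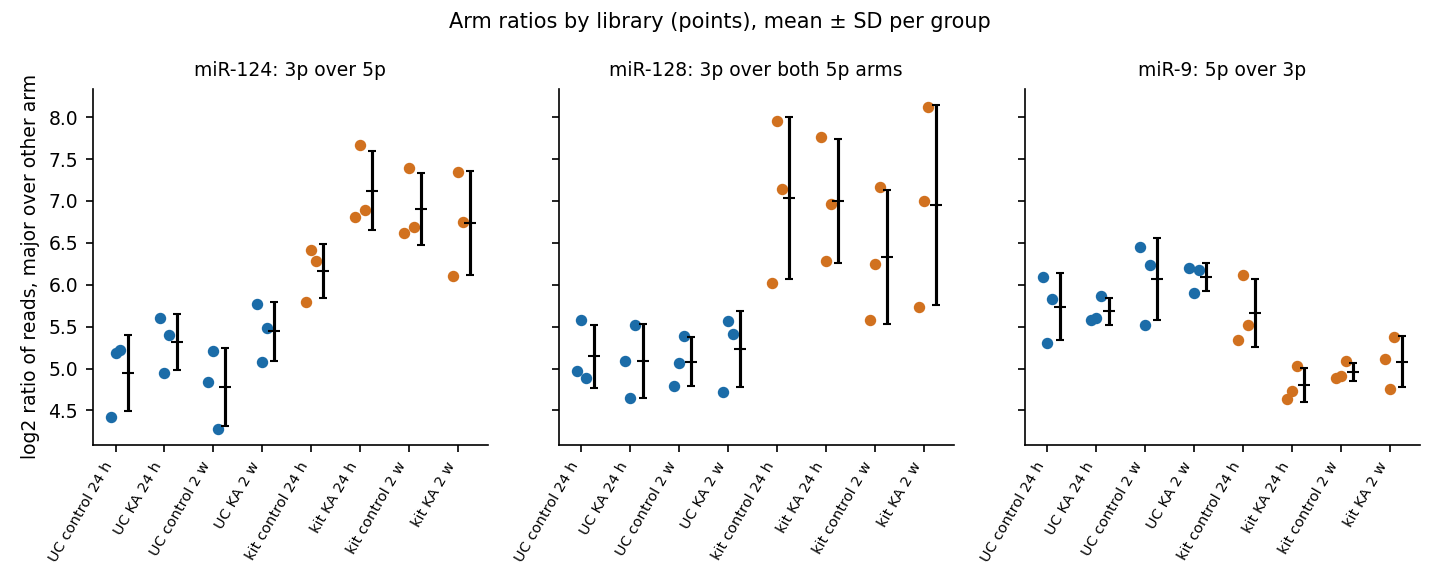
Log2 ratio of reads of the major to the other strand for miR-124, miR-128 and miR-9 in each library by group, with the group mean ± SD (n = 3). Kit points (orange) lie above all UC points (blue) for miR-124 and miR-128, and for miR-9, 8 of 12 kit points lie below them, those of controls at 24 h lying within the UC range.

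The remaining hairpins had too few minor-strand reads for this fit and are described. The 5p to 3p ratio of miR-218 rested on 10 minor reads in UC and 39 in kit, with pooled ratios of 72.0 and 117. The 3p to 5p ratio of miR-153 was 17.5 in UC, from 543 and 31 reads, and 48.7 in kit, from 3607 and 74. For miR-7a the strand with more reads differed between preparations. UC libraries held 25 reads of miR-7a-5p and 3 of its 3p strands, while kit libraries held 36 of miR-7a-5p, 113 of miR-7a-1-3p, the strand from the Hnrnpk intron, and 16 of miR-7a-2-3p. MiR-7a-1-3p was read in 12 of 12 kit libraries with 2 to 25 reads and in 2 of 12 UC libraries with 1 read each. The 3p strand of miR-7b had 0 reads in UC and 3 in kit.

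Read ends were compared next, from the authors' table of reads that depart from the mature sequence at their 3′ end. An entry gives the nucleotides that follow the last matching base, so that it can add to a full-length miRNA or replace its end. For miR-9-5p nearly all departures were short. The commonest had U as the last base in place of A, and 8.34% of UC reads and 4.56% of kit reads of miR-9-5p carried it, while the addition of 1 A after the end was in 1.64 and 0.646%. Below, the capitals mark the nucleotides that depart.
miR-9-5p, last base replaced: ucuuugguuaucuagcuguaugU
miR-9-5p, 1 base added: ucuuugguuaucuagcuguaugaA
The share of miR-9-5p reads with any departing 3′ end was 14.4% ± 1.79 (SD, n = 12) in UC and 9.74% ± 1.10 in kit, ranging from 10.7 to 17.1% and from 8.13 to 11.6%. The log2 odds differed by -0.64 (SE 0.10, adjusted p = 1.9e-04). For ends of U alone the difference was -0.80 for miR-9-5p, -0.89 for miR-124-3p and -1.13 for miR-128-3p (adjusted p = 8.5e-05, 7.8e-04 and 0.00148 in limma), all lower in kit. MiR-153-3p was called too, at -2.30, but from 1 U read in UC and 5 in kit, where the added 0.5 reads sets the value.

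Long departing ends of 5 or more nucleotides were common on miR-124-3p, miR-128-3p, miR-218-5p and miR-9-3p. Such ends made up 18.9% of all departing 3′ ends in the table and 32.3% of those of the members, and 95.3% of the members' long ends held only A or G up to their last 2 bases, against 54.7% over all miRNAs. The most frequent in miR-128-3p, miR-218-5p and miR-9-3p kept 15 bases of the mature sequence and replaced the remaining 6 or 7. Examples are shown because several of these purine-rich strings recur on unrelated miRNAs, with the departing bases in capitals.
miR-128-3p: ucacagugaaccgguAGAGGGAC
miR-128-3p: ucacagugaaccgguAGGGAGGAC
miR-218-5p: uugugcuugaucuaaGAGGGAC
miR-218-5p: uugugcuugaucuaaGGGAAAG
miR-9-3p: auaaagcuagauaacAAGAGGGAC

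The end AGAGGGAC was on 4703 reads of 156 miRNAs, 28.5% of them miR-128-3p. The end AGGGAGGAC was on 2192 reads of 83 miRNAs, 58.7% of them miR-128-3p, and AAGAGGGAC on 2491 reads of 108 miRNAs, 40.1% of them miR-128-3p. GAGGGAC was on 7010 reads of 67 miRNAs, of which only 1.77% were reads of members. How far GGGAAAG recurs was not counted. The reads shown match their miRNA over 15 bases, seed included, and are counted in the deposited tables as that miRNA. The members differed in how much they held of it. MiR-218-5p had 32.5% ± 11.8 of its reads with long ends in UC and 5.92% ± 3.15 in kit. The UC libraries ran from 8.86 to 50%, with KA at 2 weeks replicate 3 the lowest and controls at 24 h replicate 2 the highest, and kit libraries from 1.83 to 12.1%. All UC libraries but that lowest one lay above the kit libraries, and the log2 odds differed by -3.03 (SE 0.38, adjusted p = 1.1e-06). MiR-218-5p ranked 3 of 141 miRNAs by this share in UC and 21 in kit. With reads of long ends left out, its level was 1.87 higher in kit on the log2 scale, against 1.36 with every read counted.

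MiR-124-3p differed in the opposite direction. Its long ends were 3.41% ± 1.36 of reads in UC and 15.1% ± 8.71 in kit, with lowest, median and highest libraries at 1.88, 3.26 and 7.06% and 4.55, 13.5 and 30.5%. The difference in log2 odds was 2.16 (SE 0.37, adjusted p = 5.4e-05). Kit libraries numbered replicate 1 held 16.7 to 30.5% and those numbered 2 and 3 held 4.55 to 21.7%, and whether the number stands for a shared day or batch is not given in the sources used here. Without these reads miR-124-3p was -0.17 between methods. MiR-128-3p had 6.28% ± 2.54 in UC and 11.7% ± 8.36 in kit, and its difference of 0.72 (SE 0.43, adjusted p = 0.210) did not pass. Over all miRNAs the share was 0.775 to 3.87% in UC and 1.07 to 2.74% in kit. MiR-9-5p stayed under 1% in every library, and miR-153-3p had 0 of 543 reads in UC and 47 of 3607 in kit.

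**Figure D4:**
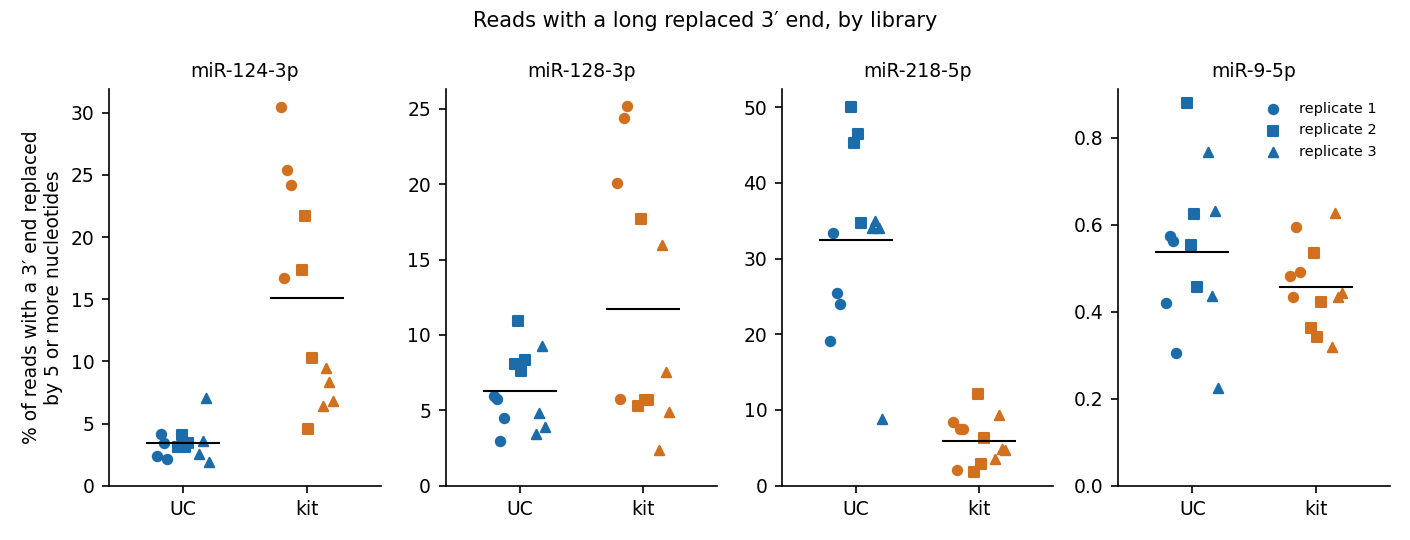
Share of reads, in %, whose 3′ end is replaced by 5 or more nucleotides for 4 members, by library and replicate number (circle 1, square 2, triangle 3), with the mean of 12 libraries per method as a bar and a separate scale from 0 in each panel. MiR-218-5p is high in UC (blue), miR-124-3p is high in kit (orange), with replicate 1 at 16.7 to 30.5%, and miR-9-5p stays below 1% in both.

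Counting ends of any length, miR-124-3p, miR-218-5p and miR-9-5p were called between methods, 3 of the 6 members with enough reads, as were 34.0% of the 141 miRNAs tested. For long ends 2 of 6 were called against 36.2% of 141, for ends of 1 to 3 nucleotides 2 of 6 (miR-9-5p and miR-124-3p, both lower in kit) against 37.6%, and for ends of U alone 4 of 6 against 37.6%. Inside the mature sequence, A-to-G changes of miR-124-3p were on 9 of 30717 reads.

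The study's main question was how status epilepticus changes the EEF content. None of the 9 members passed the test between KA and control at 24 h or 2 weeks in either method, nor in any of the 14 comparisons of treatment, time and their interactions (edgeR, adjusted p). The backgrounds were low, since 0.476% of 420 miRNAs were called in UC at 24 h, 0.952% at 2 weeks, and 0.0% of 520 in kit at both times. The 4 miRNAs behind the share at 2 weeks in UC became 0 to 5 when 1 library was left out, with 0 without control replicate 3 or KA replicate 3 of that time, and 0 to 6 under other settings. At an unadjusted p under 0.05 the shares of all miRNAs were 2.86 and 7.86% in UC and 4.62 and 2.69% in kit, and 1 member reached it in these 4 comparisons. MiR-124-3p in KA against control differed by -0.26 (SE 0.27) at 24 h and -0.13 (SE 0.27) at 2 weeks in UC, and by 0.53 (SE 0.29) and -0.15 (SE 0.29) in kit. The opposite signs at 24 h were tested as an interaction with method, at 0.78 (SE 0.40) and adjusted p = 0.996. The values of miR-124-3p given above overlapped between KA and controls in each case.

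MiR-9-5p differed by 0.21 (SE 0.25) and 0.19 (SE 0.25) in UC and by -0.13 (SE 0.22) and 0.03 (SE 0.22) in kit. MiR-128-3p differed by -0.07 (SE 0.27) and 0.13 (SE 0.27) in UC, and by -0.26 (SE 0.35) and 0.16 (SE 0.35) in kit. MiR-218-5p and miR-153-3p lay between -0.33 and 0.30 in all 4 comparisons, with SEs of 0.31 to 0.36. For the 7 members other than the miR-7 pair, no difference exceeded 0.74 in size and adjusted p-values were between 0.624 and 1.00 (edgeR). In simulated data, 4-fold changes of miRNAs with at least 120 reads were called in 95.2% of cases in UC and 94.0% in kit. For 2-fold changes the shares were 47.1 and 48.3%. The simulation changed a large part of the miRNAs at once, which makes the adjusted test easier to pass. In the real comparisons few were called, so these shares can overstate what would be found here. Many 2-fold changes would be missed at this depth and spread.

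A few members passed an unadjusted p of 0.05 only. MiR-9-3p in kit at 24 h read 697, 534 and 765 CPM in controls and 1123, 1224 and 933 in KA. All 3 KA libraries were above the controls, by 0.74 (SE 0.28), with adjusted p = 0.697, and 9.42% of miRNAs in that comparison likewise did not overlap. Scaled to miR-92b-3p together with miR-25-3p, the difference was 0.24. The controls at 24 h were also low beside the kit controls at 2 weeks, at 896, 905 and 956. In UC at 24 h miR-9-3p differed by 0.22 (SE 0.36). MiR-124-5p was lower with KA over both times in UC, by -0.64 (SE 0.30) (adjusted p = 0.698), with controls at 239, 201 and 185 CPM at 24 h and 148.8, 195 and 259 at 2 weeks and KA at 106, 193 and 113 and 74.2, 180.7 and 109.7. These ranges overlapped at both times. Over both times, 6.43% of miRNAs in UC and 4.04% in kit had an unadjusted p under 0.05. In the interactions of KA with time in kit and with method at 24 h and 2 weeks these shares were 3.27, 2.27 and 3.53%, and miR-7a-5p at 2 weeks was the 1 member among them, at -2.64 (SE 1.28).

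**Figure D5:**
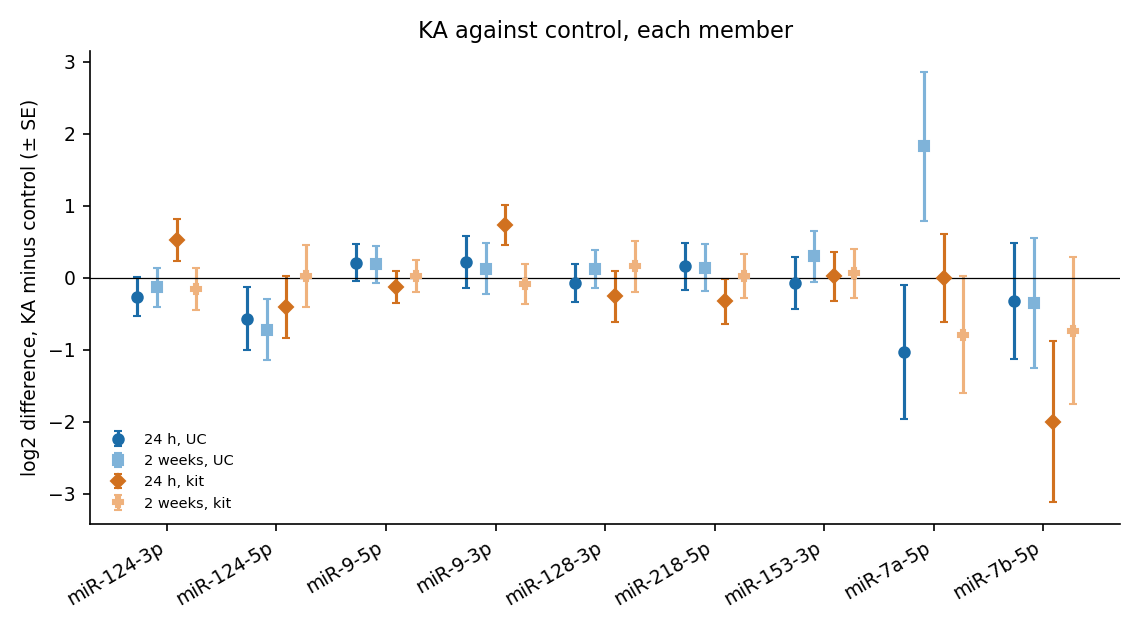
Log2 difference of each member, KA minus control, at 24 h and 2 weeks in UC (blues) and kit (oranges), with SE, 3 libraries a side. The points of the 7 better counted members lie within 0.74 of 0, and those of miR-7a-5p and miR-7b-5p spread widely with SEs of 0.61 to 1.12.

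MiR-7a-5p did not overlap in CPM between KA and control at either time in UC, as 9.05% of miRNAs at 24 h and 10.2% at 2 weeks did not. It had 1 to 4 and 0 to 6 reads a library. At 24 h the highest KA and the lowest control library held equal reads, so the gap there comes from the scaling. By an unadjusted p the change of miR-7a-5p differed between times, as for 6.9% of miRNAs. No member had groups without overlap between KA and control in kit at 2 weeks, where 5.19% of miRNAs did. Between 2 weeks and 24 h no member passed either, adjusted or not, where 4.05 and 10.5% of miRNAs in UC (controls and KA) and 3.65 and 3.08% in kit had an unadjusted p under 0.05. In UC controls miR-9-5p read 17309.9, 16932 and 15735 CPM at 24 h and 23631, 18357 and 23023 at 2 weeks, without overlap, and differed by 0.39 (SE 0.26) (adjusted p = 0.989), while 10.2% of miRNAs did not overlap there. MiR-7a-5p was the other member without overlap, and lower at 2 weeks, on 4, 3 and 2 reads at 24 h and 1, 0 and 1 at 2 weeks. MiR-153-3p after KA in UC read 328, 286 and 305 at 24 h and 417, 442 and 432 at 2 weeks, a difference of 0.49 (SE 0.36) (adjusted p = 0.713), beside a share of 10.5%. In kit the same miR-153-3p groups overlapped, with 1213, 804 and 1201 and 808, 597.8 and 1503, and differed by -0.17 (SE 0.34). MiR-9-3p in kit controls was higher at 2 weeks without overlap, beside 8.46% of miRNAs without overlap in either direction, and no member was apart in kit KA, where 5.77% were. These comparisons share libraries with those of KA against control.

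Strand choice and read ends of the members did not pass the test with KA either. The 3p to 5p ratio of miR-124 differed by 0.52 (SE 0.28, adjusted p = 0.644) in UC and 0.40 (SE 0.31, adjusted p = 0.908) in kit, where 0.0% of the 59 hairpins were called in either method. For miR-9 the values were -0.02 (SE 0.26, adjusted p = 0.987) and -0.37 (SE 0.27, adjusted p = 0.908). None of the 6 members tested for departing 3′ ends was called with KA in UC or in kit. The summed level of the microglia and leukocyte miRNAs did not overlap between KA and control in 3 of the 4 comparisons. In UC it was lower after KA at 24 h, at 1656 to 2047 CPM against 2270.0 to 2495, and higher at 2 weeks, at 4177 to 6628 against 2208 to 2449. In kit it overlapped at 24 h, at 654 to 1136 against 681 to 1574, and was higher at 2 weeks, at 1598 to 8226 against 665 to 1525. Which names of the list carried these sums was not tested. The oligodendrocyte sum in kit at 24 h did not overlap either, at 2501 to 2773 CPM after KA against 2272 to 2394. In that comparison 9.42% of single miRNAs were without overlap. The members' sum overlapped between KA and control in all 4, and at 2 weeks in UC it was 32947 to 49981 against 35220.2 to 36428. The part of these markers in the members' values was not tested.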

How the data were processed

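Small RNA libraries (TruSeq, Illumina MiSeq) of 24 EEF samples were analysed from the deposited tables. The authors counted reads per mature miRNA with Chimira against miRBase v21 hairpins, and the deposited values are raw counts per miRNA and counts of reads per modification pattern, in which 11791 reads listed again as doubled entries were left out here. How reads that fit several hairpins were assigned is not given in the sources used here. The members and gene lists were chosen with earlier results of these data known. Groups came from the sample titles, with 3 libraries each. miRNAs with CPM over 1 in at least 6 libraries (of each method, for comparisons between methods) were tested with edgeR 4.0.16 (TMM, quasi-likelihood test, Benjamini-Hochberg adjustment over all miRNAs tested), giving 420 tested in UC, 520 in kit and 397 between methods. Log2 arm ratios (59 hairpins with at least 120 reads of the minor arm) and log2 odds of departing 3′ ends (141 miRNAs with a mean of at least 50 reads), both with 0.5 reads added, were fitted with limma 3.58.1. Single ratios were tested by exact permutation within conditions. Intervals are 1.96 SE on each side. The scripts were tested on simulated counts. DESeq2 1.42.0, limma-voom, other scalings, other filters, a replicate block and leaving out each library were tried, and after the data were seen, kit against UC within each condition and selections of reads by 3′ end. Named miRNAs were the members, the other strands of their hairpins, up to 5 called miRNAs of the other neuron-enriched list, and the 3 most like each of miR-124-3p, miR-9-5p and miR-128-3p. Single miRNAs of the marker lists were named as well.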

Additional observations from a re-analysis of the deposited data

Results flagged for a closer look

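One result was singled out, because KA and control libraries did not overlap in CPM at either time, with opposite directions at the 2 times. At 24 h control replicate 3 and KA replicate 2 both held 2 reads, so the gap between them comes from the scaling. MiR-7a-5p in UC had 4, 3 and 2 reads in controls and 1, 2 and 1 after KA at 24 h, and 1, 0 and 1 in controls and 2, 6 and 2 after KA at 2 weeks. The difference between the times was 2.86 on the log2 scale (SE 1.39) and did not pass the adjusted test (adjusted p = 0.708, edgeR). Each library rests on at most 6 reads.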

How the results depend on the processing

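The numbers of members called kept within 1.5 times their main values in all 198 other settings and all 312 fits that left out 1 library. For KA, time and their interactions that number was 0 throughout. Between kit and UC it ran from 5 to 7 of the levels and from 2 to 4 of the departing 3′ ends. An equal number can hide a change of members, as given above for miR-9-5p and miR-124-3p under 2 scalings. The calls over all miRNAs were less stable, as in UC at 2 weeks, where 4 became 2 without UC KA at 24 h replicates 2 or 3 or UC control at 24 h replicates 1 or 3, and 0 with library size only, with the 3 most abundant miRNAs left out of it, with scaling to 2 reference miRNAs or with only the groups compared. The sign of miR-124-3p between kit and UC turned from -0.03 to 0.017 with library size only and 0.019 with no filter, and to 0.21 within KA at 24 h, 0.10 within controls at 2 weeks and 0.12 within KA at 2 weeks, none of them called. It ranged from -0.14 to 0.056 when 1 library was left out, turning positive without kit KA at 2 weeks replicate 1 or kit control at 24 h replicate 1. MiR-7a-5p was 1.06 within controls at 2 weeks. With 2 reads added in place of 0.5, the departing 3′ ends of miR-9-3p were at -0.29 and of miR-153-3p at -0.030, again not called. The departing ends of miR-128-3p and miR-153-3p passed the test only when 1 library was left out, at 0.63 without kit KA at 2 weeks replicate 2 and 0.65 without UC KA at 24 h replicate 1. The cause of these changes was not tested. Deviations from the group means were correlated between libraries of different groups. With the same replicate number they correlated at 0.0892 on average in UC and 0.104 in kit, with lowest values of -0.114 and -0.246. With other numbers the averages were -0.0447 and -0.0518. Deviations of 3 libraries from their own mean sum to 0, which ties these averages to the same-number ones, so they are no separate comparison. The same-number values were small, and the numbers were not taken to pair the samples in the main fits. Kit libraries numbered 1 had higher medians of long 3′ ends, at 24.8% for miR-124-3p and 22.3% for miR-128-3p against 8.88 and 5.68% in the others. The ranges overlapped, at 16.7 to 30.5% against 4.55 to 21.7% for miR-124-3p and 5.75 to 25.2% against 2.35 to 17.7% for miR-128-3p. For miR-218-5p those numbered 1, at 2.12 to 8.42%, lay within the range of the others, 1.83 to 12.1%. Whether a number marks a shared preparation is not given in the sources used here. With a replicate block 7 members were called between kit and UC, and 0 with KA or time, with miR-124-3p at -0.04 and miR-7b-5p at -1.26. Depth limits the miR-7 pair and the minor strands of miR-218 and miR-153.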
